A study of Homo sapiens with 8 samples.

Results

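The retinoic acid pathway was followed here through 10 of the 19962 protein-coding genes of chromosomes 1 to 22 and X, namely the receptors RARA, RARB and RARG, the retinaldehyde dehydrogenases ALDH1A1, ALDH1A2 and ALDH1A3, the retinaldehyde reductase DHRS3 and the cytochromes CYP26A1, CYP26B1 and CYP26C1. Their regulatory regions were taken as every ATAC-seq peak that overlapped the gene span of the GENCODE 44 annotation plus 20 kb either side, merged over the libraries. This gave 320 regions of 285909 in the whole data set.

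ATAC-seq, in which a transposase cuts accessible DNA, was run on cells of the RUES2 line of human embryonic stem cells during their differentiation into heart muscle, with 2 libraries at each of 4 stages. The stages are abbreviated hESC for the starting cells of day 0, MES for the mesoderm of day 2, CP for the progenitors of day 5 and CM for the cardiomyocytes of day 14. The hESC were collected after a day in the WNT activator CHIR-99021, the MES after 2 further days in RPMI with albumin, ascorbic acid and CHIR-99021, the CP after exchange of CHIR-99021 for the WNT inhibitor Xav-939 from day 3, and the CM after inhibitor-free medium from day 5 and B27 supplement from day 7. No retinoid is named among these agents, although standard B27 contains retinyl acetate, a form of vitamin A. The design describes the libraries of a stage as biological replicates of 1 cell line, and no sort is described, so that fewer cells of a type and less accessibility per cell cannot be told apart.

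Retinoic acid is made from vitamin A in a pair of steps, oxidation of retinol to retinaldehyde and of retinaldehyde to retinoic acid, the latter by the ALDH1A enzymes, with ALDH1A2 as the main source in the early embryo. DHRS3 turns retinaldehyde back into retinol, and the CYP26 enzymes hydroxylate and so inactivate retinoic acid. The RAR proteins, as heterodimers with RXR, bind retinoic acid response elements, which are direct repeats of a hexamer most often spaced by 2 or 5 bases (DR2 and DR5), and RARB, CYP26A1 and DHRS3 are classical genes induced by the ligand. In the heart, retinoic acid is known for setting the posterior border of the progenitor field and for atrial against ventricular fate.

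The response elements were sought as the letters AGGTCA, the variant AGTTCA, the variant GGGTCA or the variant GGTTCA, repeated in the same direction 1, 2 or 5 bases apart, on both strands, in 300 bp around the summit of each region. A DR5 was found in 5 of the 320 regions (1.56%), and in 325 of all 285909 regions (0.114%). A DR2 was found in 2 of the 320 (0.625%) against 0.209% of all, and a DR1 in none of the 320 against 0.151% of all. A match is a description of the letters, not of binding. The 5 DR5 matches and the pair of DR2 matches are printed because they show where the receptor's consensus lies near a summit. Of the 7 matches, 6 lie wholly inside their peak. The second RARB DR2 has 4 of its 14 bases in the peak (chr3:25507755-25507954), which was listed in hESC replicate 1 alone (4.42) and was not tested. They were read from hg38 with 20 bases either side, 5′ to 3′ on the strand of the match, and capitals mark the repeated hexamers.
RARB DR5, plus strand, chr3:25428190-25428246, at the start of the canonical transcript: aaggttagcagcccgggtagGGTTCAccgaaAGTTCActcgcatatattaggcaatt
RARA DR5, plus strand, chr17:40341633-40341689, at an internal start: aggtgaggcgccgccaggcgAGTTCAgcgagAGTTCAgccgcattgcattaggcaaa
CYP26A1 DR5, minus strand, chr10:93073783-93073839, at the start of the canonical transcript: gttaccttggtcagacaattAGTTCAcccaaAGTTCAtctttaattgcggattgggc
CYP26A1 DR5, plus strand, chr10:93071897-93071953, upstream of the start: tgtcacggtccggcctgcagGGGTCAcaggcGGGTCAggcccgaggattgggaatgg
DHRS3 DR5, minus strand, chr1:12604583-12604639, in the intron after exon 1: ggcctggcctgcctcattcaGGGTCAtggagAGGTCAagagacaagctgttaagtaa
RARB DR2, plus strand, chr3:25485868-25485921, in an intron: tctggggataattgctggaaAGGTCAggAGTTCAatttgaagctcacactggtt
RARB DR2, plus strand, chr3:25507725-25507778, in an intron: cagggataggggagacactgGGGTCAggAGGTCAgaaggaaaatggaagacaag

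Peaks were called by the authors in each library separately, and each value below is the fold of a peak, the reads piled up at its summit over the local background. A region with no peak in a library's list is called unlisted there: it did not pass the q-value threshold of the peak caller, which does not show that it was closed. The lists held from 55873 peaks (CM replicate 2) to 156282 (MES replicate 2), and the 10 genes took between 0.105% and 0.121% of each list. Median pileups at the members' peaks ran from 24 to 36 reads. Marker promoters followed the stage labels only in part. Of the 4 cardiac progenitor promoters, ISL1 and NKX2-5 were listed in all 8 libraries, TBX5 in CM only, and HAND2 in MES replicate 1, CP replicate 2 and CM. Of the 4 cardiomyocyte promoters, ACTN2 was listed in all 8 libraries, with 9.22 and 8.49 for hESC and 6.99 and 7.26 for CM, NPPA in CM replicate 1 only, and TNNT2 and MYH6 in CP replicate 2 and CM only. The CP libraries thus differed at TNNT2, MYH6 and HAND2, listed in replicate 2 at 5.33, 4.18 and 4.20 and not in replicate 1, and both listed ISL1, NKX2-5 and ACTN2 and neither TBX5 nor NPPA. Among the pluripotency promoters NANOG was listed in hESC and MES only, DPPA4 until CP and LIN28A in all 8 libraries, as were all 4 mesoderm promoters. The endothelial promoters of CDH5, PECAM1 and TIE1 were listed in no library, in 1 (MES replicate 1) and in 2 (MES replicate 1 and CM replicate 1). The epicardial markers TBX18 and TCF21 were listed in all 8 libraries, while the WT1 promoter was listed in neither CM library. The neural and endoderm promoters of PAX6, SOX1, SOX17 and FOXA2 were listed in 7 or 8 libraries. POU5F1 had no region at its start. The part of other cell types in the results was not tested.

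Of the 320 regions, 143 were listed in both libraries of at least 1 stage and were tested, 177 were not, and 130 of the 320 were seen in 1 library only. RARB, with a span of 910 kb, held 119 regions, ALDH1A2 76, ALDH1A1 23, ALDH1A3 22, RARA 20, RARG and DHRS3 17 each, CYP26A1 14 and CYP26B1 and CYP26C1 12 each. The 12 regions of CYP26C1 also lie in the window of its neighbour CYP26A1 and were counted once. A region was called present at a stage when both libraries listed it. At this standard 97 of the 143 were present in hESC (67.8%, against 64.1% of all regions tested), 95 in MES (66.4% against 67.9%), 78 in CP (54.5% against 51.8%) and 44 in CM (30.8% against 32.0%). By pattern, 31 were present at all 4 stages (21.7%, against 21.3% of all regions tested), 29 in hESC only (20.3% against 16.2%), 22 in hESC, MES and CP (15.4% against 13.1%), 17 in MES only (11.9% against 15.2%), 12 in hESC and MES (8.39% against 10.2%), 10 in CP only (6.99% against 6.15%), 7 in MES and CP (4.9% against 5.29%), 5 in CM only (3.5% against 5.11%), 4 from MES to CM (2.8% against 1.74%) and 2 in CP and CM (1.4% against 1.93%).

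To ask which regions differed between stages, the log2 folds were fitted with limma over all 131956 tested regions, an unlisted region taking the lowest fold that a peak at the genome-wide background had in that library. A difference that involves an unlisted stage is thus measured from this fill value. The fill ran from 2.63 (MES replicate 2) to 3.15 (MES replicate 1). The loss of a peak as low as this could thus not show as a fall. After centring the fill differed between stages. A region unlisted at both stages differed by -0.10 (MES against hESC), 0.04 (CP against MES), 0.34 (CM against CP) and 0.28 (CM against hESC). At an adjusted p under 0.05 in at least 1 of 4 contrasts, 40 of the 143 regions were called (28.0%), against 38.8% of all regions tested. RARB held 26 of the 40, out of 47 tested. The remaining 14 lay at 7 further genes, 5 of them at ALDH1A1 and 4 at ALDH1A2, and no region of CYP26B1 or CYP26C1 was called. Regions within 500 bp of a start of a member's protein-coding transcript were called in 2 of 22 cases, where 9.9% of all regions at canonical starts were called. Of the other 121 regions 38 were called, where 42.3% of all other regions were.

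Between hESC and MES, 10 regions were higher in MES (6.99%, against 8.75% of all regions tested) and 11 lower (7.69% against 8.2%). Without centring of the libraries the same contrast gave 15 higher and 9 lower, and without MES replicate 2 it gave 8 higher and 1 lower. Of all regions called between hESC and MES, 61.2% were higher without centring, against 51.6% with it. From MES to CP, 2 regions were higher (1.4% against 3.27%) and 6 lower (4.2% against 9.16%), all 8 of them at RARB. With quantile normalization this became 4 higher and 5 lower, and with lists of equal length 4 and 4. Of the calls over all regions 38.9% and 37.1% were then higher, against 26.3% in the fit described above. From CP to CM, 3 were higher (2.1% against 3.27%) and 2 lower (1.4% against 3.23%), and without centring 2 and 4. Of the calls over all regions 27.7% were higher without centring, against 50.3% with it. Both contrasts that involve CP were sensitive to CP replicate 2, without which no call stayed. Most calls of each stayed without CP replicate 1. The RARB regions 122 kb and 271 kb upstream and 85.9 kb downstream, called higher in CM, were unlisted in both CP libraries. So was that 181 kb upstream, called lower in CP. Leaving out either CP library left a lone one, and the cause of the lost calls was not tested. Between hESC and CM, 9 were higher (6.29% against 8.13%) and 16 lower in CM (11.2% against 13.7%), which became 7 and 29 without centring and 19 and 21 with quantile normalization. The balance turned with only the regions listed in all 8 libraries (5 and 2), where 51.4% of all such calls were higher. It also turned without CM replicate 2, and it was near even without CM replicate 1 and without hESC replicate 2. Shares over all regions with a library left out are not given here. The medians over the 143 regions were -0.07, 0.02, 0.11 and 0.10 on the log2 scale in the order given, and -0.06, -0.06, 0.14 and -0.0031 over all regions tested. Leaving out the centring moved the median of all regions by 0.10, -0.04, -0.29 and -0.22. Few calls had both libraries of both stages listed. They were 2 higher and 3 lower between hESC and MES, and 0 and 2 from MES to CP. From CP to CM they were 0 and 0, and between hESC and CM 1 and 2. All other calls used the fill value in at least 1 library.

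**Figure D1:**
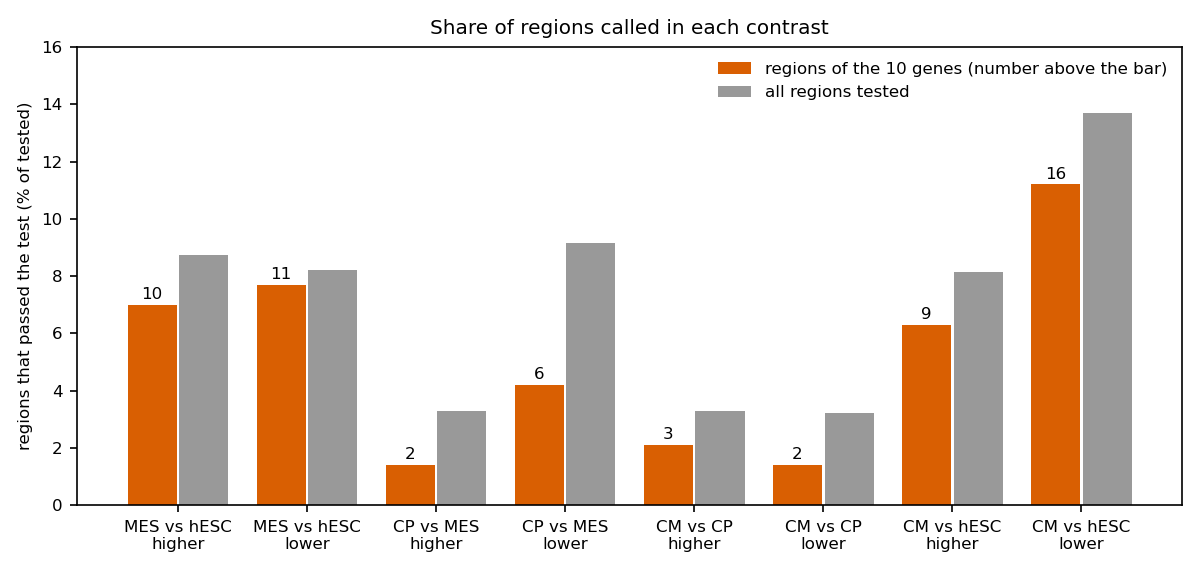
Bars show the percentage of tested regions with an adjusted p under 0.05 in each contrast and direction, for the 143 regions of the 10 genes (orange, number above the bar) and for all 131956 regions (grey). The orange bar is the lower one in each of the 8 pairs, with the gap widest for the regions lower in CP than in MES (4.2% against 9.16%).

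RARA, the broadly expressed receptor (chr17:40309180-40357643, plus strand), was listed in all 8 libraries at its canonical start, with folds of 5.14 and 4.51 for hESC, 3.52 and 4.70 for MES, 3.30 and 5.38 for CP and 3.37 and 3.88 for CM. The stages overlapped. A second start 9.03 kb downstream was stronger, at 6.86 and 5.37 for hESC, 6.24 and 6.95 for MES, 5.78 and 7.59 for CP and 5.15 and 6.66 for CM. The internal start that carries the DR5, 32.5 kb downstream of the canonical one (chr17:40341195-40342407), had folds of 3.13 and 3.04 for hESC, 3.90 and 3.79 for MES, 2.95 and 4.46 for CP and 3.76 and 4.14 for CM. A pair of regions near the start of RARA-207, 36.1 kb and 36.5 kb downstream, had folds between 2.18 and 3.11 in 6 libraries each. None of these 5 was called in a contrast. The region of the RARA window that was called lay beyond the gene, 62.3 kb from the start (chr17:40371217-40371737): it had folds of 5.95 and 7.16 for hESC, 5.54 for MES replicate 2, 3.53 for CP replicate 1, and was unlisted in the other 4 libraries. It fell by 0.91 on the log2 scale from hESC to CM (SE 0.29, adjusted p = 0.030), and the call was lost when either CM library or hESC replicate 2 was left out. Its neighbour 55.6 kb from the start (3.33 and 3.87 for hESC, 2.83 for MES replicate 2, 2.53 for CP replicate 1) and an intronic region 7.63 kb downstream, listed in 5 libraries between 2.31 and 2.92, were not called.

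RARG (chr12:53210567-53232980, minus strand), which is prominent in stem cells and early mesoderm, had weak peaks at its canonical start. The region 154 bp upstream had folds of 3.40 and 2.84 for hESC, 2.76 and 2.98 for MES and 2.83 and 2.78 for CP, and neither CM library listed it. The adjoining region 265 bp downstream was likewise unlisted in CM, with 3.05 and 3.16 for hESC. The internal start of RARG-201, 11.1 kb downstream, was listed throughout, at 3.32 and 3.29 for hESC, 3.50 and 3.42 for MES, 3.45 and 4.63 for CP and 3.62 and 5.27 for CM. A region beside it, 12.0 kb downstream, had 2.18 for MES replicate 1 and 2.37 for CP replicate 2 only. No contrast was called at these starts. The RARG start regions unlisted in CM took fill values of 2.86 and 3.11 there, close to their hESC folds. A loss of these peaks in CM could thus not be called. The tallest peak of the window, 19.9 kb upstream, was listed throughout and not called, at 7.50 and 7.43 for hESC, 8.11 and 7.72 for MES, 8.39 and 8.50 for CP and 6.69 and 8.64 for CM. Intronic regions 15.0 kb and 7.49 kb downstream were listed in both hESC libraries, between 2.51 and 3.05, and later only the second in CP replicate 2 (2.44), with no call. A region over exon 8, 18.7 kb downstream (chr12:53213350-53213659), was listed in hESC replicate 2 alone of the hESC pair (3.56), in MES at 3.37 and 3.26, in CP at 4.04 and 5.15 and in CM at 4.15 and 5.26. It rose from hESC to CM by 0.76 (SE 0.26, adjusted p = 0.039), a call that was lost without centring and when either hESC library was left out.

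RARB (chr3:24687887-25597932, plus strand), the receptor gene that retinoic acid itself induces, had the most called regions, and also the most tested ones, 47 of the 143. Regions were assigned to RARB by the annotated span alone, which long transcripts extend far upstream of the canonical start. The region over its canonical start and the DR5 printed above (chr3:25427828-25428512) was open at every stage, with folds of 9.06 and 7.95 for hESC, 5.42 and 7.06 for MES, 5.75 and 8.68 for CP and 7.42 and 7.64 for CM. The MES values lay below the hESC values, and the difference of -0.56 (SE 0.19, adjusted p = 0.041) was close to the threshold and was lost under several settings, among them no centring and the omission of either hESC library. The distal start of the long transcripts, 599 kb upstream, was also listed in all 8 libraries, at 6.24 and 6.49 for hESC, 6.93 and 8.18 for MES, 7.35 and 9.78 for CP and 6.58 and 7.42 for CM, with no call. The start of RARB-205, 29.7 kb downstream, was listed in CM replicate 1 only (4.40).

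The strongest change of all 143 regions by the fit over the 4 stages was in an intron of the long RARB transcripts, 341 kb upstream of the canonical start (chr3:25086584-25087305). Neither hESC library listed it. The folds were 9.58 and 9.59 for MES, 8.30 and 10.8 for CP and 4.31 and 5.94 for CM. Every differentiated library thus listed the region and the CM values were the lowest of the listed ones. It rose from hESC to MES by 1.64 (SE 0.22, adjusted p = 9e-05) and was still above hESC in CM by 1.04 (SE 0.22, adjusted p = 0.0017), both under all alternatives in which it was tested. The 200 bases around its summit, chr3:25086722-25086921 on the plus strand, are shown because they hold 5 matches to the GATA consensus (AGATAA or its form AGATAG, and TGATAA or its form TGATAG, on either strand), the site of the GATA factors that act in mesoderm and heart, and 1 to the TCF consensus CTTTGAA, which binds the WNT effector. Capitals mark these 6 matches.
RARB intronic region, 341 kb upstream: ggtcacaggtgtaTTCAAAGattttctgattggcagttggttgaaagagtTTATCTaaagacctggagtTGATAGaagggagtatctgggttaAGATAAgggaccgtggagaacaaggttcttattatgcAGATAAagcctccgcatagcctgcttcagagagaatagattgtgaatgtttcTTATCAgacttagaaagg
Over all regions, 37.4% held a GATA match in 300 bp around the summit, as did 117 of the 320 regions of the 10 genes (36.6%). Of the 40 called regions 22 held one (55.0%), and of all called regions 48.5%. Matches to NKX (TNAAGTG) were found in 13.8% of the 320 regions against 15.4% of all, to TCF (CTTTGAT, the variant CTTTGTT or the variant CTTTGAA) in 19.7% against 16.5%, and to T-box factors (AGGTGTGA or the variant AGGTGTTA) in 3.75% against 3.44%.

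A region in the intron after exon 2 of the canonical RARB transcript, 57.6 kb downstream of the start (chr3:25485711-25486049), was listed from CP on. No hESC or MES library listed it, and its folds were 5.34 and 9.85 for CP and 6.10 and 6.38 for CM. It was higher in CP than in MES by 1.37 (SE 0.27, adjusted p = 0.0028), which was lost without CP replicate 2, and higher in CM than in hESC by 1.34 (SE 0.27, adjusted p = 0.0014), which no alternative removed. It holds the DR2 shown above, 26 bases from the summit, and its 200 bases at chr3:25485762-25485961 are given with the repeat in capitals.
RARB intronic region, 57.6 kb downstream: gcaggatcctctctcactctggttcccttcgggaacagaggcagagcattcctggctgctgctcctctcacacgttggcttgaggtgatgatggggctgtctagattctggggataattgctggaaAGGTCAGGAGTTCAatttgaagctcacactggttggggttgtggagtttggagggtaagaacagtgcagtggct
The opposite course was seen 476 kb upstream (chr3:24952398-24952784), where folds of 10.6 and 10.9 for hESC, 9.36 and 6.96 for MES and 7.17 and 7.23 for CP ended with no peak in either CM library. The fall from hESC to CM was -1.63 (SE 0.22, adjusted p = 2.8e-05), and that from CP to CM was -0.99 (SE 0.22, adjusted p = 0.0061) but was lost without either CP library. The tallest RARB peak, 654 kb upstream (chr3:24773819-24774187), had 12.1 in both hESC libraries, 12.4 and 13.2 for MES, 6.84 and 12.5 for CP and 7.90 and 6.22 for CM. Both CM values lay below all hESC and MES values, and the fall from hESC was -0.57 (SE 0.17, adjusted p = 0.020), which was lost with quantile normalization and without CM replicate 2.

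The further RARB regions below were picked after their values were seen, to show the range of courses. A region 729 kb upstream peaked in MES, with 4.11 and 5.34 for hESC, 11.8 and 10.8 for MES, 4.27 and 7.67 for CP and no peak in CM. It rose by 1.16 (SE 0.24, adjusted p = 0.0028) into MES and fell by 0.94 (SE 0.24, adjusted p = 0.014) into CP, the latter lost without any 1 of the MES and CP libraries. At 147 kb upstream the peak was again highest in MES (9.42 and 6.70), with 3.63 and 4.18 for CP and none in hESC or CM, and it rose by 1.37 from hESC to MES (SE 0.27, adjusted p = 0.0020). At 89.9 kb upstream the CP values were the highest, at 10.7 and 11.1, after 6.33 and 6.46 for MES and before 4.13 and 9.73 for CM, where the libraries differed widely. hESC listed no peak there, and the rise from hESC to CM was 1.37 (SE 0.28, adjusted p = 0.0020). At 42.3 kb upstream CP had 6.59 and 11.5, CM 4.64 and 4.24, MES a peak of 5.47 in replicate 2 only, and hESC none.

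Cardiomyocyte-only peaks at RARB were found 122 kb upstream, with 5.03 and 6.21 for CM, and 271 kb upstream, with 4.49 and 4.78. No other library listed either of them. They were called higher in CM than in CP, by 1.24 (SE 0.24, adjusted p = 0.0021) and by 0.97 (SE 0.22, adjusted p = 0.0085), calls that were lost without CP replicate 2. Both were tested only because both CM libraries listed them, and both CP values were fill values. A region unlisted in CP and CM alike already differed by 0.34. The third region called higher in CM than in CP, 85.9 kb downstream, had 5.56 and 5.62 for CM but also 6.41 for hESC replicate 2, and its call was lost without either CP library. Other regions were seen in hESC alone, such as one 46.9 kb upstream with 5.70 and 5.61. A region 7.89 kb upstream of the start had 7.71 and 7.59 for hESC, 3.84 and 4.39 for MES and no later peak, a fall of -1.00 (SE 0.26, adjusted p = 0.012) into MES that was lost without hESC replicate 1 or either MES library. One 181 kb upstream had 7.02 and 5.94 for hESC and 7.17 and 9.11 for MES, was unlisted in both CP libraries and had 3.77 for CM replicate 1. Of the 47 tested RARB regions, 6 were called higher (12.8%, against 8.75% of all regions tested) and 8 lower (17% against 8.2%) in MES than in hESC, and 6 higher (12.8% against 8.13%) and 10 lower (21.3% against 13.7%) in CM than in hESC.

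**Figure D2:**
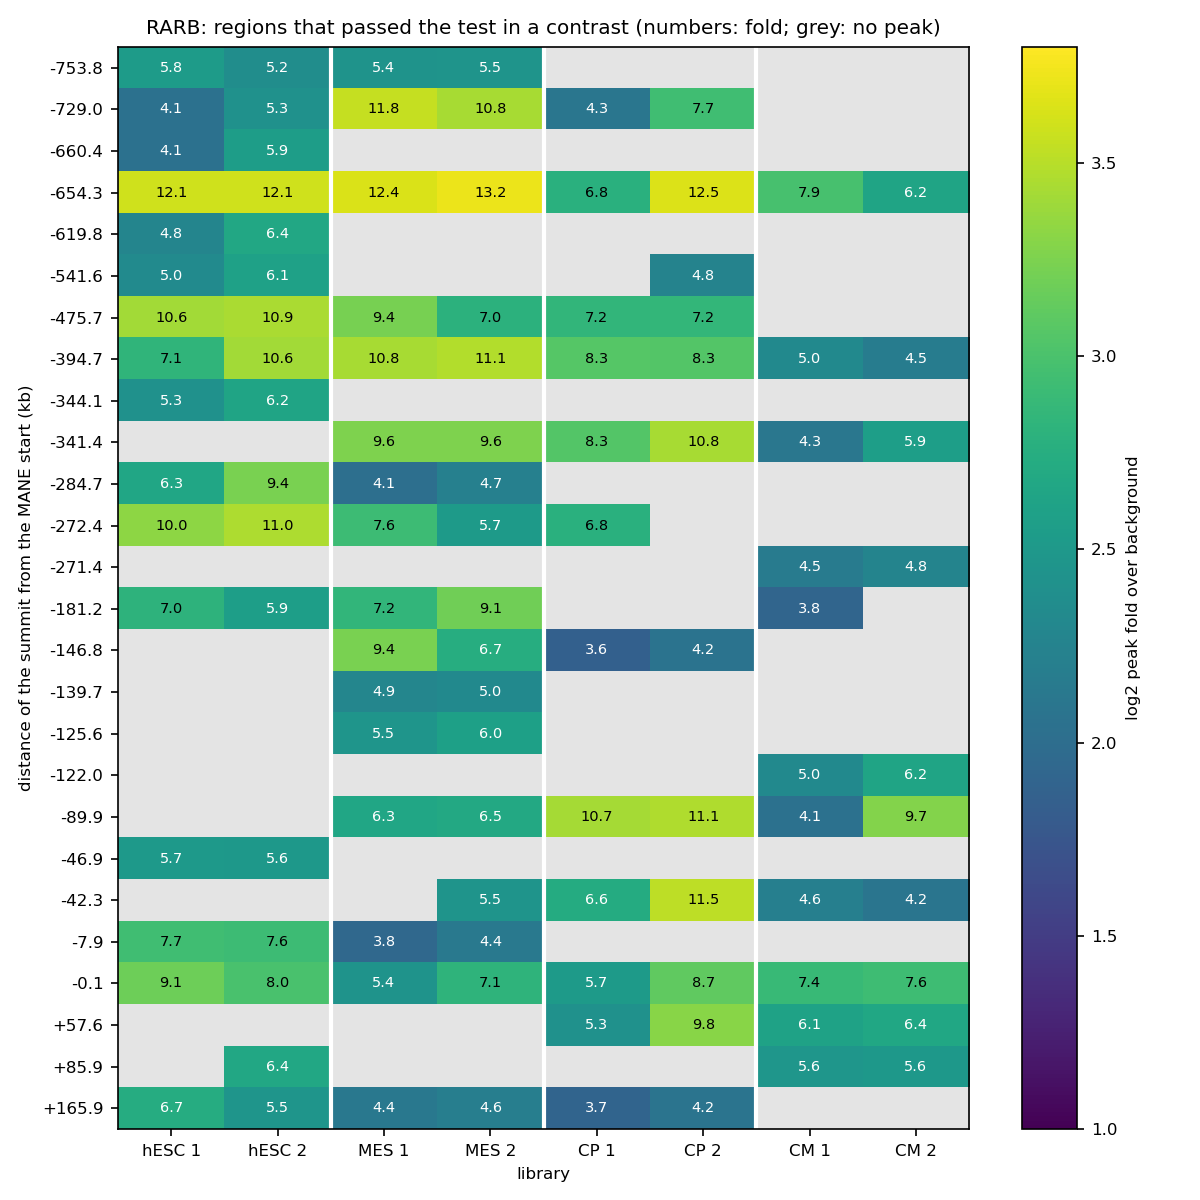
Rows are the 26 RARB regions called in at least 1 contrast, ordered by the distance of the summit from the canonical start in kb (negative is upstream), and columns are the 8 libraries. Cell numbers are folds, colour is the log2 fold and grey means that no peak is listed. The row 341 kb upstream is empty in hESC and filled from MES on, that 476 kb upstream is filled until CP, and the row at the start itself is filled throughout.

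Among the enzymes of synthesis, ALDH1A1 (chr9:72900671-73080442, minus strand) had a lower summed signal in CM than at the other stages. For a value per gene, fold minus 1 was summed over the peaks of the window. The sum was 49.0 and 62.5 for hESC, 33.9 and 67.8 for MES, 40.1 and 51.0 for CP and 11.4 and 8.91 for CM, on 12, 13, 7, 13, 10, 9, 4 and 2 peaks. Both CM values lay far under the rest. In a limma fit over 18928 protein-coding genes, ALDH1A1 fell by 1.62 on the log2 scale from CP to CM (SE 0.21, adjusted p = 0.013), where 0.66% of all genes were called, and fell by 1.86 from hESC to CM (SE 0.21, adjusted p = 0.0018), where 8.67% were. The CM to CP call was lost without centring, without either CP library and with the number of peaks in place of their sum. With lists of equal length both calls were lost. It was the single gene of the 10 called in these contrasts. In MES against hESC and in CP against MES none of the 10 and 0.0% of all genes were called. At an unadjusted p under 0.05, 1361 and 1404 genes and none of the 10 passed in these. The CM libraries also had the shortest lists, with 92891 and 55873 peaks, and all 10 genes had their lowest sum in a CM library.

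The ALDH1A1 promoter at the canonical start (chr9:72952923-72953276) was listed at 4.84 and 7.03 for hESC, 5.24 and 5.47 for MES, 4.70 for CP replicate 1 and in no other library, and it was not called. A start of a longer transcript, ALDH1A1-203, 127 kb upstream (chr9:73080120-73080732), had folds of 6.52 and 6.38 for hESC, 10.8 and 12.3 for MES, 6.41 and 9.01 for CP, 3.59 for CM replicate 1 and none in CM replicate 2. The MES values were the highest. It rose into MES by 0.73 (SE 0.20, adjusted p = 0.014) and fell by 0.90 from CP to CM (SE 0.20, adjusted p = 0.0064). The rise was lost when any 1 of the hESC or MES libraries was left out, and the fall without CP replicate 2 or CM replicate 2. Inside the long transcripts, 97.9 kb upstream of the canonical start, a region with 8.47 and 6.41 for hESC, 5.88 and 8.96 for MES and 5.77 and 4.88 for CP was unlisted in CM. It fell by 1.09 from hESC to CM (SE 0.26, adjusted p = 0.0049), which was lost without hESC replicate 1. A region 6.03 kb upstream was listed in hESC only, at 4.35 and 4.81, and the difference between MES and hESC was -0.77 (SE 0.22, adjusted p = 0.021), lost without either hESC library, MES replicate 2 or CM replicate 2. It was tested only because both hESC libraries listed it, and both MES values were fill values. CM did not list it either, yet the difference between CM and hESC was -0.40 and was not called. The call thus does not set MES apart from the later stages. Not every region of the window was lower in CM: one 44.8 kb upstream had 3.39 for hESC replicate 1 only, 5.20 and 5.27 for MES, 5.55 and 8.60 for CP and 4.67 for CM replicate 1 only, and one 129 kb upstream had 5.69 for hESC replicate 2, 5.44 for MES replicate 2, 5.77 and 7.20 for CP and 6.67 for CM replicate 2, neither with a call. The start of ALDH1A1-204, 85.8 kb upstream, had 4.35 and 5.16 for hESC, 6.77 for MES replicate 2 and 6.99 for CP replicate 2, again with no call.

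**Figure D3:**
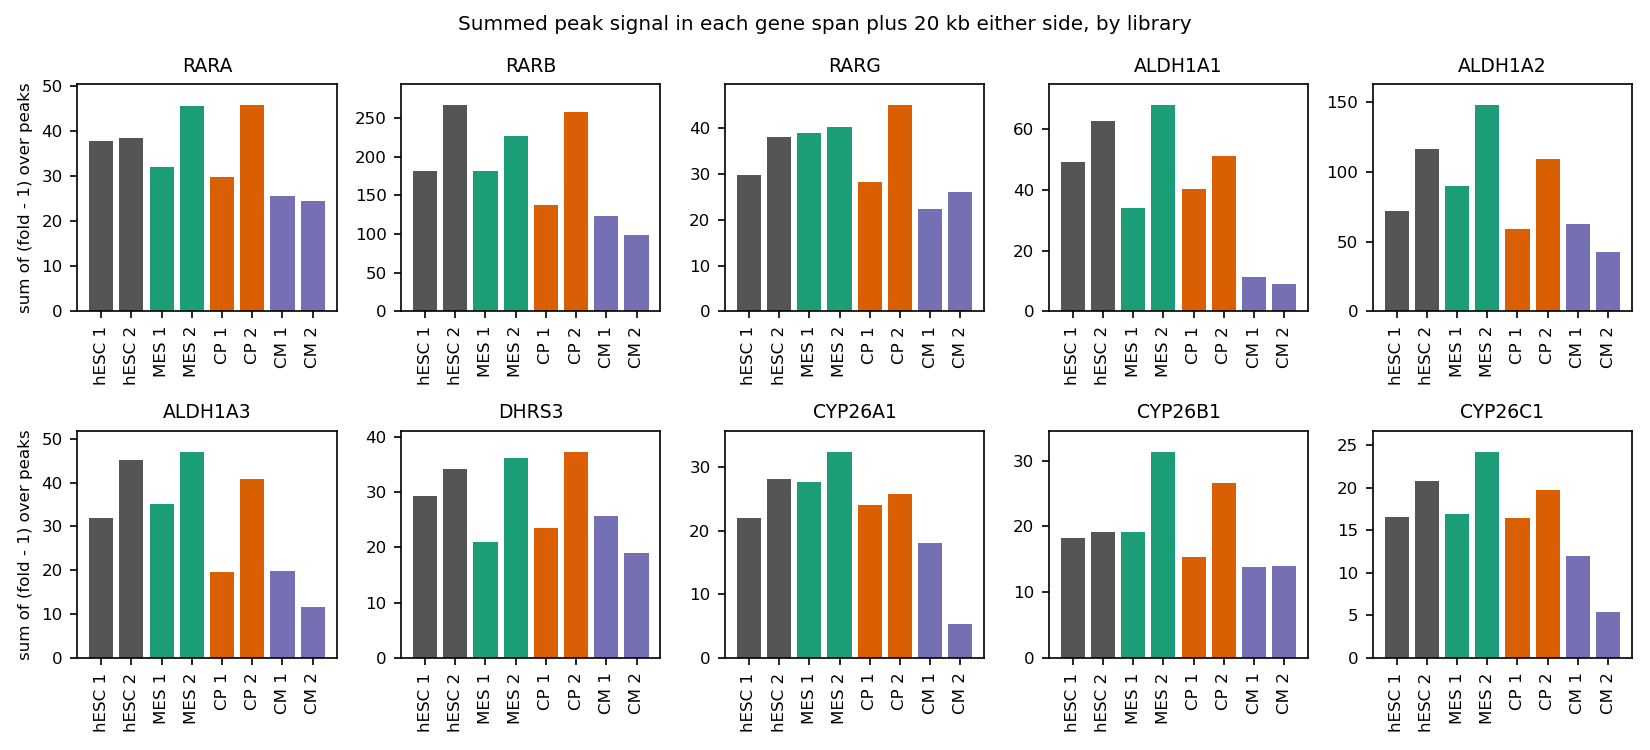
Bars give the sum of fold minus 1 over the peaks in each gene's span plus 20 kb either side, per library, on a separate axis from 0 for each gene. ALDH1A1 shows both CM bars (11.4 and 8.91) far below the lowest other bar (33.9), while for RARG and DHRS3 the CM bars lie near or among the others.

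ALDH1A2 (chr15:57953424-58497866, minus strand), the main enzyme of the embryo, kept an open start. The region over its canonical transcript's start (chr15:58065011-58066672) had folds of 5.71 and 7.34 for hESC, 7.94 and 7.20 for MES, 5.91 and 8.94 for CP and 6.51 and 5.80 for CM, with no call. Its summed signal was not called either, at 72.0 and 116 for hESC and 62.5 and 42.4 for CM. In the long upstream transcripts, a region 267 kb from the start (chr15:58331773-58332656) was the one member region listed in all 8 libraries that was called higher in CM than in hESC. It had 7.58 and 6.59 for hESC, 6.59 and 7.56 for MES, 7.99 and 10.1 for CP and 10.5 and 10.2 for CM. The CM values lay above all hESC and MES values, and the rise from hESC was 0.77 (SE 0.16, adjusted p = 0.0016) and was called under every alternative. A region 318 kb away ran the other way, from 8.23 and 7.60 for hESC to no peak in CM, with a fall of -1.19 (SE 0.28, adjusted p = 0.0039). One 397 kb away, which also lies in LIPC, had its highest folds in MES, 6.37 and 9.0, and rose there by 1.04 over hESC (SE 0.27, adjusted p = 0.010), which was lost without hESC replicate 1 or MES replicate 2. The tallest peak, 204 kb upstream, was listed throughout and not called, at 9.19 and 9.79 for hESC, 7.42 and 12.0 for MES, 7.26 and 9.52 for CP and 5.52 and 7.91 for CM. These distances are long, and the regions were assigned to ALDH1A2 by the annotated span alone.

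ALDH1A3 (chr15:100877714-100916626, plus strand), known from eye and nasal development, was listed at its start in all 8 libraries, at 4.04 and 3.98 for hESC, 4.79 and 5.25 for MES, 4.59 and 4.17 for CP and 4.04 and 3.53 for CM. A second region at the start, 659 bp downstream, had folds between 2.42 and 3.49 in 7 libraries and was unlisted in CM replicate 2. No contrast was called at either. A downstream region 46.6 kb from the start, inside LRRK1, had 6.51 and 6.47 for hESC, 4.20 and 5.34 for MES, 4.72 for CP replicate 2 and nothing in CM, and fell by 0.90 from hESC to CM (SE 0.26, adjusted p = 0.016), a call lost without any 1 of the hESC and CM libraries. An intronic region 17.4 kb downstream was listed in both CM libraries (3.37 and 4.38) and in CP replicate 2 (6.91), and was not called. Nor was a region 49.9 kb downstream, highest in MES at 6.99 and 6.53 and between 3.67 and 4.88 where listed elsewhere, or the tallest peak, 12.0 kb downstream, with folds between 3.54 and 7.77 in 7 libraries.

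DHRS3 (chr1:12567910-12618210, minus strand), which lowers the supply of retinaldehyde, had an open start without a call, at 3.11 and 3.60 for hESC, 3.88 and 3.34 for MES, 3.37 and 4.52 for CP and 3.95 and 4.33 for CM. The change lay in its first intron, 13.6 kb downstream (chr1:12604173-12604755), in the region whose DR5 is printed above. Neither hESC library listed this region. It had folds of 7.05 and 7.54 for MES, 5.19 and 8.71 for CP and 5.04 and 6.34 for CM, so that all 6 later libraries listed it. The rise over hESC was 1.24 in MES (SE 0.24, adjusted p = 0.0016) and 1.20 in CM (SE 0.24, adjusted p = 0.0012), and both were called under every alternative in which they were tested. The other start regions of DHRS3, 2.02 kb and 22.8 kb downstream, had folds between 2.58 and 6.84 and were not called. A region 11.4 kb upstream had 5.70 and 5.61 for hESC and 4.79 for MES replicate 2 only, and one 1.79 kb upstream had 2.77 to 4.03 in all 8 libraries, both without a call.

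CYP26A1 (chr10:93073475-93077885, plus strand), the main retinoic acid hydroxylase of the early embryo, was listed at its start in all 8 libraries with low folds, 3.04 and 2.97 for hESC, 3.89 and 3.96 for MES, 3.60 and 3.09 for CP and 2.70 and 3.34 for CM, and no contrast was called. Both MES values were above both hESC values. The region that changed lay 23.6 kb downstream (chr10:93096941-93097847), with 4.45 for hESC replicate 2 only, 8.60 and 9.19 for MES, 6.03 and 7.03 for CP and 4.67 for CM replicate 1 only. It rose into MES by 1.20 (SE 0.27, adjusted p = 0.0038), which held with each library left out and was lost when unlisted regions took the lowest fold of the list. Regions 21.6 kb downstream (6.41 and 4.88 for hESC, 4.19 for MES replicate 1, 3.51 for CP replicate 1, 3.41 for CM replicate 1) and 6.57 kb downstream (7 libraries, 4.16 to 6.41) were not called. The 200 bases of the called region at chr10:93097411-93097610, plus strand, show 2 GATA matches in capitals.
CYP26A1 downstream region: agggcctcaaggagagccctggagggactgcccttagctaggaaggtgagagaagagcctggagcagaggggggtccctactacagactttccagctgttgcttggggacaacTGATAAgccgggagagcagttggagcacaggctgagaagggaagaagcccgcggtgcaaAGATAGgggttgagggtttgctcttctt

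CYP26B1 (chr2:72129238-72147862, minus strand), active in limb and gonad, had almost no peak at its canonical start: 2.44 for CP replicate 1 and none elsewhere. A start 2.84 kb downstream was listed in all 8 libraries, at 3.41 and 2.98 for hESC, 3.64 and 4.02 for MES, 3.92 and 3.72 for CP and 2.92 and 3.15 for CM. Another start, 4.65 kb downstream, was listed in 4 libraries between 2.06 and 3.57. The tallest region, 31.5 kb downstream, had 5.99 and 6.50 for hESC, 5.07 and 5.69 for MES, 3.42 and 7.53 for CP and 2.82 and 4.25 for CM, where the CP libraries lay far apart. A region 2.65 kb upstream had 3.56 to 6.25 in all 8 libraries, and one 2.34 kb downstream was listed in hESC only (3.21 and 2.19). CYP26C1 (chr10:93060798-93069540, plus strand) had a start region with 3.29 and 2.71 for hESC, 2.85 for MES replicate 2, 3.00 and 3.90 for CP and none in CM. A second region at this start, 575 bp downstream (chr10:93061261-93061490), was listed in CM replicate 1 only, at 2.83. Regions over exons 2 and 5 were listed in 4 and 2 libraries, between 2.50 and 2.84. Its tallest region, over exon 3, was listed in 7 libraries between 3.30 and 5.55 and was missing in CM replicate 2. No region of either gene was called. For the low folds this was set by the fill value, which was 2.86 and 3.11 in CM. Against hESC, the CYP26C1 start region without a CM peak differed by 0.22 in CM. The CYP26B1 region listed in hESC only differed by 0.39 in CM, so that a loss there could not be called.

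**Figure D4:**
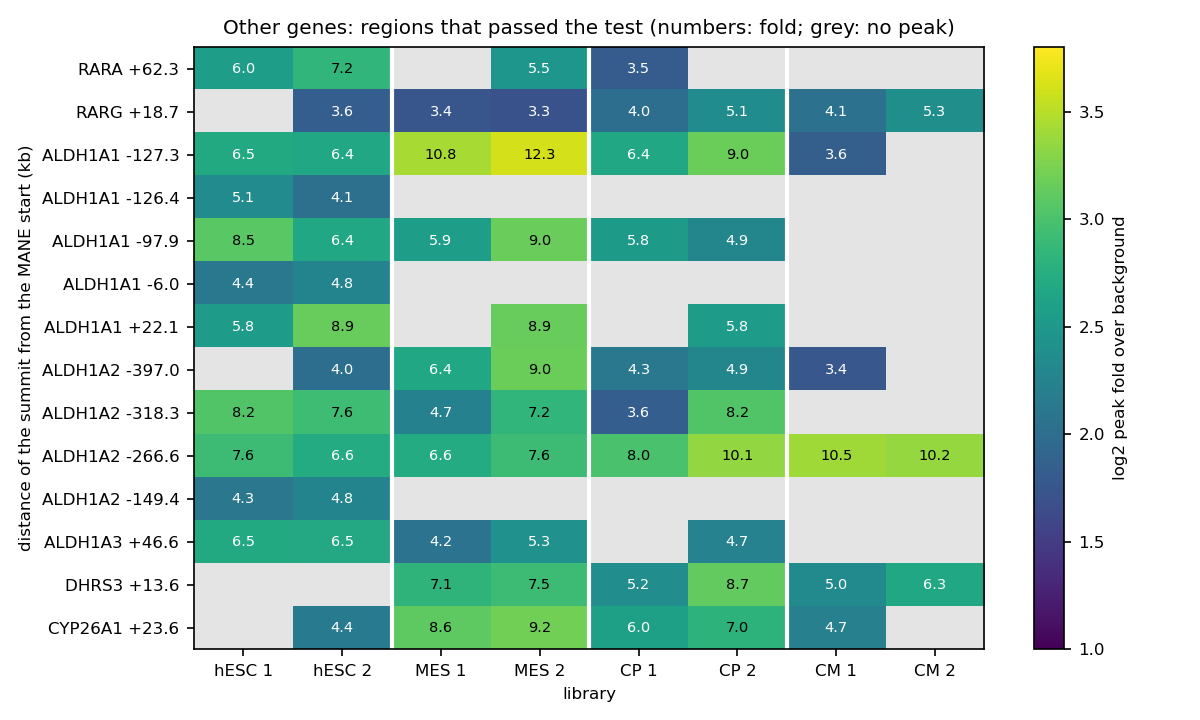
Rows are the 14 called regions of the other genes, with the distance of the summit from each gene's canonical start in kb, and columns are the 8 libraries. Numbers are folds, colour is the log2 fold and grey means no listed peak. DHRS3 at +13.6 is listed from MES on, CYP26A1 at +23.6 is highest in MES and CP, ALDH1A2 at 267 kb upstream is highest in CM, and 5 ALDH1A1 rows are grey in CM apart from a fold of 3.59.

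Beside the 10 genes, 26 further genes of the pathway were read at their canonical starts. They were the RXR partners, carriers and binding proteins such as CRABP2, retinol enzymes such as RDH10 and LRAT, co-regulators, and known targets of the receptors. Of these, 24 had a region, all 24 were tested and 20 were listed in all 8 libraries; DHRS9 and STRA8 had no region. From hESC to MES 1 was lower, HOXB1, a direct target with folds of 4.66 and 4.38 for hESC, 2.92 and 2.24 for MES and no later peak (-0.92, SE 0.22, adjusted p = 0.0069), a call lost without hESC replicate 1 or MES replicate 2. These MES folds lay below the fill values of 3.15 and 2.63 that an unlisted region took there. The HOXB1 difference from hESC to CM, where no peak was listed, was -0.38 and was not called. From hESC to CM 1 was higher, NR2F2, an orphan receptor of atrial and venous cells, with 4.60 and 4.58 for hESC, 5.88 and 5.56 for MES, 5.78 and 6.49 for CP and 5.51 and 7.44 for CM (0.70, SE 0.23, adjusted p = 0.032), lost without centring and without either hESC library or CM replicate 2. None of the 24 was called between MES and CP or between CP and CM. CRABP1, an intracellular binding protein, had folds from 4.12 to 5.52 until CP and was listed in neither CM library, but its difference was not called. RXRA, RXRB and RXRG, the heterodimer partners, were listed in all 8 libraries, at 3.34 to 4.53, 4.13 to 5.05 and 4.19 to 7.73, and none was called.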

How the data were processed

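ATAC-seq was performed by the authors on 8 libraries, 2 for each of 4 stages (hESC, MES, CP, CM; days 0, 2, 5 and 14). Per the labels and the study's methods, reads were mapped to hg38 with BWA 0.7.13, duplicates removed with Picard, and peaks called in each library with MACS2 2.1.0. The deposited lists give for each peak a fold, a ratio of pileup over local background, the −log10 p-value and −log10 q-value, and a display score from the authors' peak caller, which was not used. Number of reads per library is not in the lists. Pileup was recovered from fold and −log10 p.

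Peaks of chromosomes 1 to 22 and X were merged where they overlapped. Each region took the highest fold per library. An unlisted region took the library's lowest fold at genome-wide background, libraries were median-centred over regions listed in all 8, and log2 folds were fitted with limma 3.58.1 (R 4.3.3, trend and robust) with Benjamini-Hochberg adjustment and a threshold of 0.05. Since the files hold peaks, the study's count test could not be repeated. Coordinates are 1-based on hg38, whose chromosome lengths hold all regions, with GENCODE 44. The gene sums used log2(1 + sum). The scripts were tested on simulated data.

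Regions named were those within 500 bp of a start, the 3 further ones with the smallest p over the stages and the one with the highest fold per gene; other regions, and the RXR promoters, were chosen after their values were seen. The members and lists were chosen with earlier results of these data known.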

Additional observations from a re-analysis of the deposited data

How the results depend on the processing

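Each stage had 2 libraries, so a left-out library leaves a lone one that is assumed to vary like the others, and depth limits what an unlisted region means. No value of the 63 region, promoter and gene differences that were called changed sign under any alternative, and 10 stayed called under all in which they were tested: DHRS3 in its first intron (MES and CM against hESC), RARB 341 kb upstream (both), 729 kb and 147 kb upstream (MES against hESC), 476 kb upstream, 122 kb upstream and 57.6 kb downstream (CM against hESC) and ALDH1A2 267 kb upstream (CM against hESC). The RARB region 122 kb upstream was tested only because both CM libraries listed it, and both its hESC values were fill values. A region unlisted in hESC and CM alike already differed by 0.28, so its staying called is no independent support.

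With 1 library left out, the called regions ranged from 9 to 24 between hESC and MES (lowest without MES replicate 2), from 0 to 22 between MES and CP (without CP replicates 2 and 1), from 0 to 9 between CP and CM (without CP replicate 2 and CM replicate 1) and from 14 to 31 between hESC and CM (without hESC replicate 2 and CP replicate 2). The genes called by summed signal ranged from 0 to 3 between CP and CM and from 1 to 4 between hESC and CM, the highest without CM replicate 1.

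With only the regions listed in all 8 libraries, where fewer were tested, 0, 0, 0 and 7 of 31 regions were called in the 4 contrasts, against 0.893%, 0.43%, 2.06% and 12.2% of all 28115 such regions. With the lowest fold of a list as fill value, 15 were called between MES and CP, and with quantile normalization 40 between hESC and CM. Over all 131956 regions the calls rose in the same settings, from 16411 to 20050 and from 28798 to 35767. The cause was not tested. Between CP and CM, ALDH1A1 was lost and 0 genes were called without centring, with the number of peaks and with lists of equal length, and with the last also 0 between hESC and CM. Regions present at all 4 stages numbered 64 of the 320 present at any stage when 1 library of a stage sufficed. They numbered 19 of 77 with lists of equal length, against 31 of 143. The DR5 count was 4 in 200 bp.

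Deviations of same-numbered libraries were at most weakly correlated (from -0.06 to 0.11), and the numbers were not taken as pairs. A replicate block gave 26, 14, 6 and 31 called regions in the 4 contrasts, against 21, 8, 5 and 25. Over all regions it gave 26316, 20362, 11104 and 32853, against 22360, 16411, 8567 and 28798.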
